A study of Homo sapiens with 7 samples.

Results

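The HOX genes are transcription factor genes that stand in 4 clusters, HOXA, HOXB, HOXC and HOXD, and give cells their position along the body axis. Genes with low paralogue numbers are used toward the head, and those with high numbers toward the tail. In embryonic stem cells the clusters are textbook targets of Polycomb repression, in which the histone mark H3K27me3 covers silent developmental genes, and retinoic acid is a known inducer of the clusters. JMJD3, the product of KDM6B, removes this mark. PRAC1 is a small gene that lies between HOXB9 and HOXB13 and is known for its expression in prostate, rectum and distal colon.

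The genes were taken from those on chromosomes that are named HOXA, HOXB, HOXC or HOXD with a number, with PRAC1 added. The group described here holds 39 genes, 38 HOX genes and PRAC1, of 20187 gene entries on chromosomes and 22670 in all. They occupied 40 entries because HOXC4 was listed under a pair of gene IDs, of which the one with the higher mean is used below. The study asked how a Dox-inducible fragment of JMJD3 with its catalytic domain (JMJD3c) changes gene expression in human embryonic stem cells (hESCs). The cells were SEES-3, a hESC line, that carried the Tet transactivator and a transgene on a piggyBac vector with a nuclear localization signal and a Tet-responsive promoter, and stable clones were selected with puromycin. The JMJD3c-hESCs were sampled before Dox (Day 0) and on Days 1, 2, 3 and 4 of treatment with Dox (1 µg/ml), and the JMJD3c mut-hESCs, whose JMJD3c carries a point mutation in the catalytic domain, were sampled without Dox and after 4 days of Dox. All cells were grown without feeders in StemFit AK-03 on iMatrix-511. Each of the 7 conditions had 1 library, so no difference below has a replicate check, no test was made, and differences between the lines cannot be told apart from differences between cultures.

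From the spacing of low values, the libraries held an estimated 1780000 reads (Day 0) to 3660000 reads (untreated mutant line). KDM6B, to which the reads of the transgene also map, was at 3.45 FPKM (fragments mapped to a gene, scaled to transcript length and library size) at Day 0 and between 158 and 282 at Days 1 to 4. It was at 2.40 and 454 FPKM in the mutant line without and with Dox. The cells were positive for all 8 hESC markers examined in each library, with a summed level of 1688 to 2278 FPKM. Over 5 endoderm markers the summed level was 0.26 FPKM at Day 0, 207 at Day 4, and 4.19 and 3.45 in the mutant line. Over 7 primitive streak and mesoderm markers it was 7.32 FPKM at Day 0, 113.6 at Day 4 (with TBX6 and MSGN1 at 0), and 7.52 and 5.15 in the mutant line. These marker lists move with Dox in the JMJD3c line, and their part in the results below was not tested. In these bulk samples, fewer cells with a transcript and less of it per cell cannot be told apart.

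The HOX clusters stayed close to silent throughout. Among the 266 values of the 38 HOX genes in the 7 libraries, 214 were 0, and the highest was 2.26 FPKM, for HOXB13 at Day 4. Of the 38 genes, 20 (52.6%) were at 0 in all 7 libraries, against 16.8% of all entries on chromosomes. No HOX gene was above 4 FPKM in any library, a level that 53.9% of all entries passed at least once. Genes were called by the study's cutoffs. An upregulated gene had a ratio above 2 and over 4 FPKM with Dox, and a downregulated one had a ratio below 0.5 and over 4 FPKM without Dox. With these cutoffs no HOX gene could be called in either direction, and the absence of calls follows from the level. PRAC1 was the exception among the 39 genes, and it was downregulated.

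**Figure D1:**
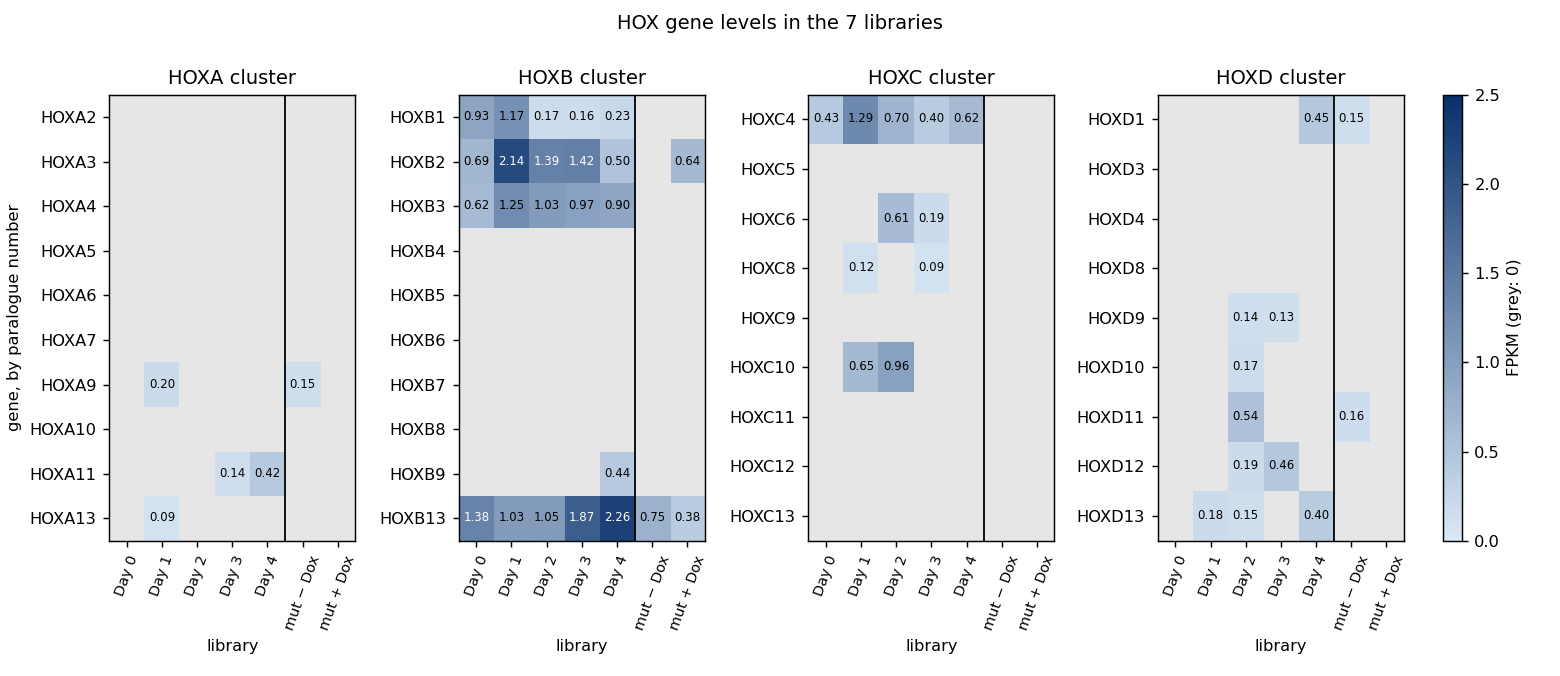
FPKM of each HOX gene (rows, by paralogue number within its cluster) in each library (columns; the line separates the JMJD3c line from the mutant line, mut). Color runs from 0 to 2.5 FPKM and grey marks 0: values stand mainly in HOXB1, HOXB2, HOXB3, HOXC4 and HOXB13, and 20 of the 38 rows are grey in all 7 libraries.

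PRAC1 (ENSG00000159182, chromosome 17 of hg19, 46799084 to 46799884) was the highest member of the group. From Day 0 to Day 4 it was at 56.2, 37.5, 24.0, 14.5 and 2.27 FPKM. In the mutant line it was at 19.8 FPKM without Dox and 10.4 with Dox. The level was lower at each later day of Dox, and the Day 4 value lay below those of both mutant samples. These values correspond to an estimated 18, 18, 14, 9 and 1 reads from Day 0 to Day 4, and 13 and 6 reads in the mutant line, each within 0.0857 of a whole number.

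Relative to Day 0, the PRAC1 ratio was 0.667 at Day 1, with a 95% interval from the reads (exact, for counting error only) of 0.328 to 1.36. It was 0.428 (0.198 to 0.914), 0.258 (0.102 to 0.606) and 0.0404 (9.7e-04 to 0.257) at Days 2, 3 and 4. The intervals of Days 2, 3 and 4 lay below 1, and that of Day 1 included 1. By the cutoffs PRAC1 was called downregulated at Days 2, 3 and 4, when 2.14%, 2.28% and 3.84% of all entries were called downregulated. The calls of Days 2 and 3 were lost when the Cufflinks intervals had to be apart and when the untreated mutant line was the reference, and the call of Day 4 was kept in both cases. No member was called upregulated on these days, against 1.97%, 2.4% and 2.98% of all entries. At Day 1 no member was called, against 1.76% of all entries upregulated and 1.65% downregulated.

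The reference mattered for the size of the fall in PRAC1. The untreated mutant line was itself lower than Day 0, with a ratio of 0.353 (0.158 to 0.757), a difference that passed the cutoff for downregulation as did 3.49% of all entries. Relative to the untreated mutant line, PRAC1 at Day 4 had a ratio of 0.115 (0.0027 to 0.770) and was again called, as were 1.94% of all entries. Relative to the Dox-treated mutant line the ratio at Day 4 was 0.219 (0.00477 to 1.81), an interval that includes 1. At Day 2, however, it was higher than in the untreated mutant line, with a ratio of 1.21. In the mutant line itself the ratio with Dox was 0.523 (0.164 to 1.49), an interval that includes 1. No member was called there, against 0.604% of all entries upregulated and 0.738% downregulated. Cufflinks' own intervals were at odds with the listed values of this short gene: at Days 0, 1 and 2 the value lay above its interval, which was 16.1 to 51.3 FPKM at Day 0. At Day 4 the Cufflinks interval was 0 to 4.28 FPKM.

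HOXB13, the posterior HOX gene next to PRAC1 and a regulator of prostate development, did not follow it. HOXB13 (ENSG00000159184, chromosome 17, 46802125 to 46806540) lies 2.24 kb from PRAC1, while HOXB9 lies 95.2 kb away on the other side. From Day 0 to Day 4 it was at 1.38, 1.03, 1.05, 1.87 and 2.26 FPKM. It was at 0.752 and 0.382 FPKM in the mutant line without and with Dox. The Day 3 and Day 4 values were the highest and both mutant values the lowest, and HOXB13 was the 1 HOX gene above 0 in all 7 libraries.

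The estimated reads for HOXB13 were 8, 9, 11, 21 and 18 from Day 0 to Day 4, and 9 and 4 in the mutant line. The Day 4 ratio to Day 0 was 1.64 with an interval of 0.680 to 4.37, so a rise was not detectable at this depth. Relative to the mutant line, Day 4 was higher by 3.01 times (1.28 to 7.60) without Dox and 5.92 times (1.95 to 24.0) with Dox. These are ratios between single libraries of separate lines. In the mutant line the ratio with Dox was 0.508 (0.114 to 1.82). From Day 0 to Day 4, then, PRAC1 went from 56.2 to 2.27 FPKM while its neighbor went from 1.38 to 2.26, which left both at about the same FPKM, a per-length level that rests on 1 read for PRAC1.

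**Figure D2:**
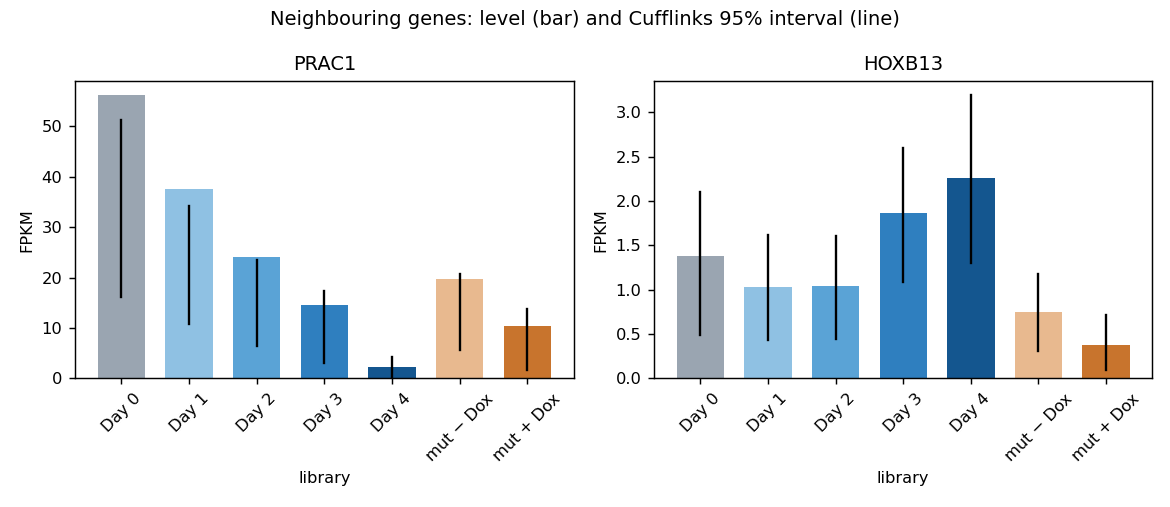
FPKM of PRAC1 (left) and HOXB13 (right) in the 7 libraries, with bars for the listed level and lines for the Cufflinks 95% interval, on separate linear axes from 0. PRAC1 steps down from 56.2 to 2.27 FPKM between Day 0 and Day 4, and its bars at Days 0, 1 and 2 end above their intervals; HOXB13 is highest at Days 3 and 4.

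The promoter of PRAC1 is shown beside those of HOXB1, the one HOXB gene with a promoter in the table used, and HOXA13, the HOX promoter with the most CpG. Each sequence is from RefSeq (GRCh38.p14, so these positions are not those of hg19) and runs 5′ to 3′ from 250 bases before to 50 after the start, with CpG dinucleotides in capitals.
PRAC1, chr17:48722469-48722768, minus strand: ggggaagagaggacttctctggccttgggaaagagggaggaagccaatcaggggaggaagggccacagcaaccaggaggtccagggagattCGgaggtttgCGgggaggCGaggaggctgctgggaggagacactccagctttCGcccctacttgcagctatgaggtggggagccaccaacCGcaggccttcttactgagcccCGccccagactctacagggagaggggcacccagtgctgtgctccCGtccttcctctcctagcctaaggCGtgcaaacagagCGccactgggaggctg
HOXB1, chr17:48530962-48531261, minus strand: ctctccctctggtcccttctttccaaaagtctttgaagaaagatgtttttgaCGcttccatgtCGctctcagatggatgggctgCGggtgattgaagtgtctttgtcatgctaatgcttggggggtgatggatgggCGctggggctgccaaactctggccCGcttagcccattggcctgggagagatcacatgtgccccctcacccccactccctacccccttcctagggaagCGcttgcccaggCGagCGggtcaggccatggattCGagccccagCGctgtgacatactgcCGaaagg
HOXA13, chr7:27200042-27200341, minus strand: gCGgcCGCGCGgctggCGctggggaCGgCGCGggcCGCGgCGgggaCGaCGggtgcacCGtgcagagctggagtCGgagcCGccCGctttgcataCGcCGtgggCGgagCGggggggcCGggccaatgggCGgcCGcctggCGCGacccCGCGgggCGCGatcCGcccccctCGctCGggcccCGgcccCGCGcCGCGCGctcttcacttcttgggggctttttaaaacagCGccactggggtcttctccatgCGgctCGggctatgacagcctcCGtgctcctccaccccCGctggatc

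CpG-rich promoters are the usual sites of Polycomb binding in stem cells. The PRAC1 promoter holds 9 CpG, 0.308 of the number that its base composition of 63% G and C would give. The HOXB1 promoter holds 11 CpG and the HOXA13 promoter 44. RefSeq promoters were matched for 20 of the 38 HOX genes, with 27 entries since HOXA3 and HOXA10 have several starts. HOXC4 and HOXC5 share 1 start. The median was 22 CpG over the HOX entries (0 to 44), with an observed to expected ratio of 0.849, and 14 CpG over the 35116 promoters in the table, with a ratio of 0.579. More CpG than PRAC1 were held by 23 of the 27 HOX entries (85.2%) and by 56.4% of all promoters. The letters CCAAT stand, on either strand, in the PRAC1 promoter, in 18 HOX entries and in 34.6% of all promoters. TATAAA, also sought on both strands, is in 5 HOX entries and 11.5% of all promoters and not in the PRAC1 window. The genes without a matched promoter were HOXA5, HOXB2 to HOXB9, HOXB13, HOXC6, HOXC8 to HOXC13 and HOXD9.

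**Figure D3:**
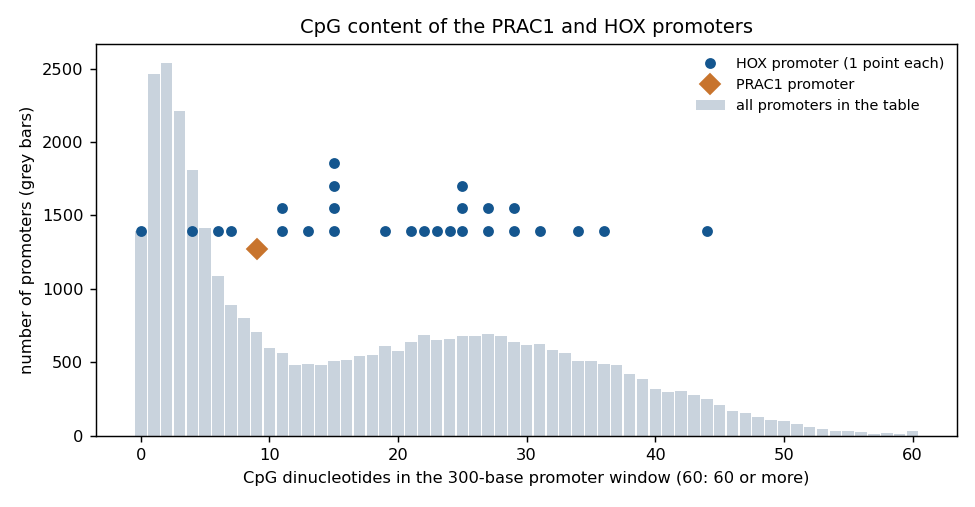
CpG dinucleotides in the 300-base promoter window (x axis) against the number of promoters (grey bars, all 35116 promoters). Each blue point is 1 of the 27 HOX entries and the orange diamond is PRAC1, whose height on the plot has no meaning: PRAC1 has 9 CpG and the HOX entries have a median of 22.

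After HOXB13, the highest values were those of HOXB2, HOXC4, HOXB3 and HOXB1, each with its highest level at Day 1 and with Cufflinks intervals that overlap those of Day 0. HOXB1, HOXB2 and HOXB3 act in the hindbrain, and HOXB1 is a direct target of retinoic acid. HOXB2 (ENSG00000173917, chromosome 17, 46620017 to 46623441) was at 0.688, 2.14, 1.39, 1.42 and 0.502 FPKM from Day 0 to Day 4. It was at 0 and 0.637 FPKM in the mutant line without and with Dox. Days 1, 2 and 3 were above the other libraries, and Day 4 was back within the range of the untreated ones.

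By the annotated length, the HOXB2 levels were worth 1.81 reads at Day 0 and 8.45 at Day 1. The levels fit whole multiples of a step 0.604 times the annotated one, so the reads are uncertain. With that step taken as 1 read, Day 0 has 3 reads and Day 1 has 14. The interval of their ratio is then 0.869 to 16.9, which includes 1. The Day 1 ratio to Day 0 was 3.11, and the Cufflinks intervals overlapped, at 0 to 1.27 FPKM for Day 0 and 1.13 to 3.11 for Day 1. A difference between these days was thus not detectable at this depth.

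HOXB1 (ENSG00000120094, chromosome 17, 46605888 to 46608359) was at 0.928, 1.17, 0.171, 0.160 and 0.226 FPKM from Day 0 to Day 4, and at 0 in both mutant samples. The low values at Days 2 to 4 were each worth about 1 read by the annotated length. The Day 1 value was worth 5.72 by that length, which is not a whole number. A step 0.336 times the annotated one fits the HOXB1 values and would make the low ones 3 reads each, so these reads are uncertain. With that step taken as 1 read, Day 0 has 9 reads. The ratios to Day 0 are then 0.184 (0.0321 to 0.738), 0.172 (0.0300 to 0.691) and 0.243 (0.0424 to 0.975) at Days 2, 3 and 4. These intervals lie below 1 but depend on that step. By the annotated length Day 0 was worth 3.02 reads, and the Cufflinks interval of Day 0 (0 to 2.65 FPKM) overlaps those of Days 2 to 4. HOXB3 (ENSG00000120093, 46626232 to 46667634) was at 0.619, 1.25, 1.03, 0.967 and 0.904 FPKM from Day 0 to Day 4, and at 0 in both mutant samples. Its Cufflinks intervals were wide, 0 to 5.66 FPKM at Day 0 and 0 to 5.18 at Day 1. HOXC4 (ENSG00000198353, chromosome 12, 54410715 to 54449813), the most 3′ gene of its cluster, was at 0.425, 1.29, 0.704, 0.403 and 0.621 FPKM, and at 0 in both mutant samples. Its second entry, ENSG00000273266, which lies at the same locus, was at 1.27 FPKM at Day 1 and 0.391 at Day 3, and below 0.001 in the other libraries. For HOXB1, HOXB3, HOXC4 and HOXB13 the 5 samples of the JMJD3c line, Day 0 included, were all above the 2 of the mutant line. These were 4 of the 39 genes, a share near that of all entries, 10.4%.

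**Figure D4:**
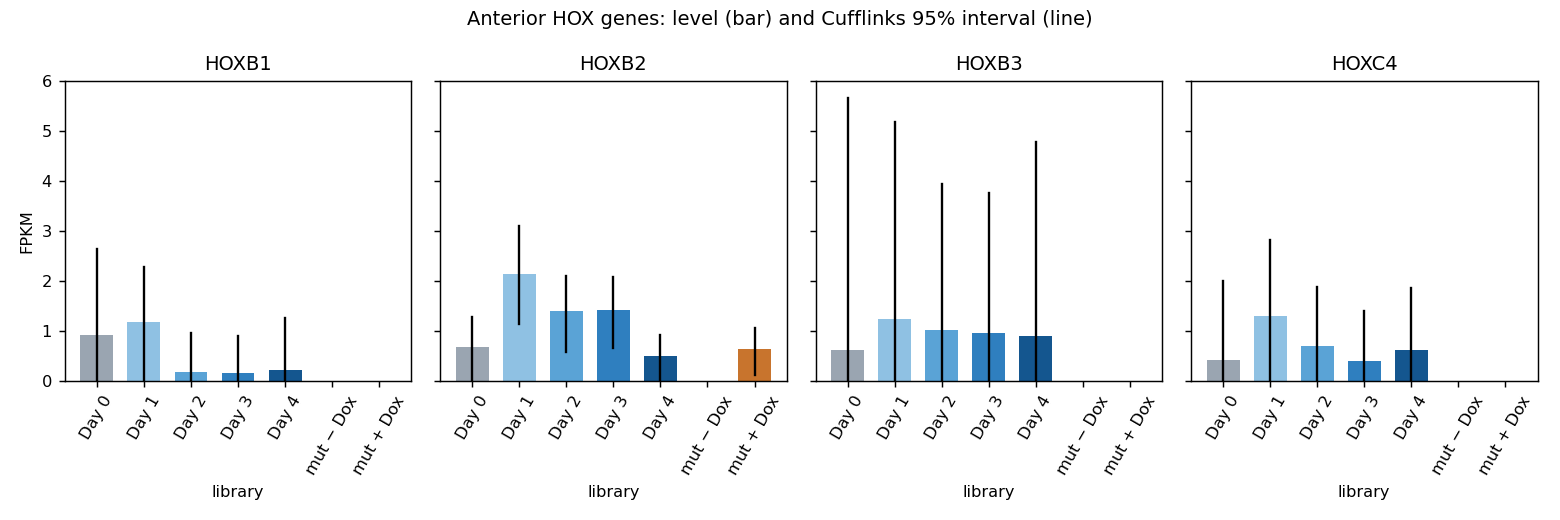
FPKM of HOXB1, HOXB2, HOXB3 and HOXC4 in the 7 libraries on 1 shared linear axis, with bars for the listed level and lines for the Cufflinks 95% interval. The Day 1 bar is the highest for each gene, the intervals of Day 0 and Day 1 overlap, and both mutant samples are at 0 except HOXB2 with Dox (0.637 FPKM).

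With a lower cutoff of 1 FPKM in the higher sample, HOXC4, HOXB2 and HOXB3 were called upregulated at Day 1, 3 of the 39 genes, against 4.37% of all entries. HOXB2 was also called at Day 2 and at Day 3, when 4.64% and 5.1% of all entries were upregulated. At Day 4 no member was called upregulated with this cutoff, against 5.93% of all entries. Relative to the untreated mutant line, HOXB13 was called upregulated at Day 4 with this cutoff, as were 6.67% of all entries. Relative to Day 0, the 37 HOX genes below 1 FPKM there included none at 1 FPKM or more at Day 4, while 8.57% of the 7892 entries below 1 FPKM at Day 0 reached it. Genes at 1 FPKM or more were HOXB13 at Day 0, HOXB1, HOXB2, HOXB3, HOXC4 and HOXB13 at Day 1, HOXB2, HOXB3 and HOXB13 at Day 2, HOXB2 and HOXB13 at Day 3, and HOXB13 at Day 4. No HOX gene reached 1 FPKM in the mutant line. Of all entries, 60.9%, 61.7%, 61.1%, 61.3% and 60.8% were at 1 FPKM or more from Day 0 to Day 4, and 59.6% and 58.9% in the mutant line without and with Dox.

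The other HOX genes were each above 0 in 1 to 3 of the 7 libraries, at 0.961 FPKM or less. Of the 52 HOX values above 0, 31 were worth 3 reads or fewer by the annotated transcript length, within 0.25 of a read. The HOXB3 values count there as 4.40 to 13.3 reads. They fit a step 4.43 times the annotated one, which would make them 1 to 3 reads, so these reads are uncertain. HOX genes above 0 numbered 5, 10, 12, 10 and 9 from Day 0 to Day 4, and 4 and 2 in the mutant line without and with Dox. Across the series, 18 HOX genes were above 0 in some library of the JMJD3c line and 5 of these in the mutant line, and 13 were above 0 at some day of Dox but 0 at Day 0. The JMJD3c line has 5 libraries and the mutant line 2, and 4 libraries with Dox stand against 1 at Day 0. These counts are therefore not on an equal footing, and the shares of all entries were not counted in this way. Day 0 was the shallowest library, in which 3 reads were worth a median of 0.926 FPKM over the HOX genes, against 0.676 at Day 4 and 0.449 in the untreated mutant line. The mutant libraries, with an estimated 3660000 reads without Dox and 3200000 with Dox, had 4 and 2 HOX genes above 0, and Day 0 had 5. The part of depth in these counts was not tested.

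By cluster, HOXB carried most of the signal. The summed level of the 38 HOX genes was 4.04, 8.14, 7.11, 5.83 and 6.23 FPKM from Day 0 to Day 4, and 1.20 and 1.02 FPKM in the mutant line. HOXB (chromosome 17 of hg19, 46605888 to 46806540) accounted for 3.61, 5.60, 3.64, 4.42 and 4.33 FPKM of these from Day 0 to Day 4, and 0.752 and 1.02 FPKM in the mutant line. HOXB4, HOXB5, HOXB6, HOXB7 and HOXB8 were at 0 in all 7 libraries, so the signal of this cluster stood at both of its ends. HOXB9 was at 0.439 FPKM at Day 4 and 0 elsewhere.

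HOXC (chromosome 12, 54332535 to 54449813) summed to 0.425, 2.06, 2.27, 0.685 and 0.621 FPKM from Day 0 to Day 4 and was at 0 in the mutant line. Besides HOXC4, its values were those of HOXC10 (0.649 FPKM at Day 1 and 0.961 at Day 2), HOXC6 (0.608 at Day 2 and 0.190 at Day 3) and HOXC8, below 0.12 FPKM at Days 1 and 3. HOXC10, a posterior gene known from limb and spinal cord, was thus above 0 at Days 1 and 2 and at 0 in the other 5 libraries. HOXC5, HOXC9, HOXC11, HOXC12 and HOXC13 were at 0 in all 7 libraries.

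HOXD (chromosome 2, 176957619 to 177055688) was at 0 throughout at Day 0 and summed to 0.184, 1.20, 0.586 and 0.852 FPKM at Days 1 to 4. It summed to 0.306 FPKM in the untreated and 0 in the Dox-treated mutant line. At Day 2 the neighboring genes HOXD9, HOXD10, HOXD11, HOXD12 and HOXD13, known for patterning limbs and the posterior trunk, were all above 0, between 0.140 (HOXD9) and 0.536 FPKM (HOXD11). This was the 1 library with every one of these genes above 0. By the annotated length these Day 2 values were worth only 0.753 (HOXD9) to 2.59 reads (HOXD11), and each had a lower Cufflinks bound of 0. HOXD12 was at 0.455 FPKM at Day 3, HOXD13 at 0.184 at Day 1 and 0.403 at Day 4, HOXD9 at 0.131 at Day 3, HOXD10 at 0.174 at Day 2 and 0 elsewhere, and HOXD11 at 0.157 in the untreated mutant line. HOXD1 was at 0.449 FPKM at Day 4 and 0.149 in the untreated mutant line, while HOXD3, HOXD4 and HOXD8 were at 0 in all 7 libraries.

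HOXA (chromosome 7, 27139721 to 27239725) was the quietest cluster. The sums of its genes described here were 0.292 FPKM (Day 1), 0.139 (Day 3), 0.424 (Day 4) and 0.147 in the untreated mutant line, and 0 in the other 3 libraries. HOXA11, a limb and uterus gene, was at 0.139 FPKM at Day 3 and 0.424 at Day 4. HOXA9 was at 0.202 FPKM at Day 1 and 0.147 in the untreated mutant line, and HOXA13 at 0.0898 at Day 1. HOXA2, HOXA3, HOXA4, HOXA5, HOXA6, HOXA7 and HOXA10 were at 0 in all 7 libraries. Several HOX genes overlap a neighbor, and their levels are uncertain for that reason. They are HOXA3 and HOXA4, HOXB3 and HOXB4, HOXC4 with HOXC5 and HOXC6, HOXC6 with HOXC8 and HOXC9, and HOXD3 and HOXD4. HOXA3 and HOXA4, HOXC4 and HOXC5, and HOXD3 and HOXD4 each lie on the same strand, so strand in counting would not separate them.

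By position, 5 of 11 anterior genes (paralogues 1 to 4), 2 of 11 central genes (5 to 8) and 11 of 16 posterior genes (9 to 13) were above 0 in some library. The central part of the clusters was therefore the emptiest, with HOXC6 and HOXC8 as its members above 0. The median log2 fold change over the 38 HOX genes, with a pseudocount of 1 that understates the change of low genes, was 0.00 in all 5 comparisons. Between 26 and 33 of the 38 genes were at 0 in both samples of a comparison, so this median could only be 0 and measures no change. The median over all entries was also 0.00, with 4639 to 4814 of 20187 at 0 in both samples. At Day 4, 7 HOX genes were above Day 0 and 2 were below, with 29 at 0 in both, and over all entries 7343 were above and 8144 below. The counts above and below Day 0 were 9 and 1 for Day 1, 10 and 2 for Day 2 and 8 and 2 for Day 3. Over all entries they were 7732 and 7714, 7574 and 7930, and 8027 and 7521. In the mutant line 1 HOX gene was above and 4 were below the untreated sample, with 33 at 0 in both, and over all entries 7706 were above and 7667 below. The 4 comparisons of the time course share the Day 0 library, which was the shallowest. The part of depth in these counts was not tested.

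Beside the clusters, EVX1 was the gene called. Of 14 entries between or within 200 kb of the HOX genes, 8 were above 4 FPKM in some library, and 1, EVX1, was called at Day 4, against 2.98% of all entries upregulated. EVX1 (ENSG00000106038), a homeobox gene of the primitive streak that lies 42.4 kb beyond HOXA13, was at 0, 0, 0.22, 1.01 and 4.61 FPKM from Day 0 to Day 4, with a Cufflinks interval of 2.62 to 6.59 on the last day. It was at 0 in both mutant samples, so the samples of Days 2 to 4 alone had a value. Its counterpart EVX2, which lies 8.98 kb from HOXD13, was at 0.14 FPKM at Day 0, 0.09 at Day 1 and 0 in the other 5 libraries. The widely expressed neighbors CBX5, UBE2Z and MTX2 were at 54.4, 42.8 and 32.9 FPKM at Day 0 and at 52.5, 39.0 and 36.0 at Day 4. ATP5G1, a subunit gene of the mitochondrial ATP synthase and the most abundant of these neighbors, stood at 217 (Day 0) and 134 FPKM (Day 4). This ratio of 0.615 is not a call, although the Cufflinks intervals were apart (168 to 267 and 106 to 161 FPKM). It was at 161 and 127 FPKM in the mutant line without and with Dox. None of the 14 entries was called in the mutant line, against 0.604% of all entries upregulated and 0.738% downregulated.

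HOX proteins bind DNA with cofactors of the TALE homeodomain class, the PBX, MEIS, PKNOX and TGIF proteins. Of 10 TALE genes, MEIS3 was upregulated at Day 4, and none was downregulated, against 2.98% and 3.84% of all entries. MEIS3 (ENSG00000105419) was at 8.46, 13.3, 22.7, 34.3 and 31.6 FPKM from Day 0 to Day 4, a ratio of 3.74 with Cufflinks intervals apart. It was at 9.16 and 9.38 FPKM in the mutant line, near the Day 0 level. MEIS1 was at 0 FPKM at Day 0 and 5.38 at Day 3, the day at which it was called, and MEIS2 at 0 and 3.72 at Day 4. The median log2 fold change of the list at Day 4 was 0.10, and over all entries it was 0.00.

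Of 13 genes known to act upstream of the HOX clusters, GBX2 was downregulated at Day 4 and none was upregulated, against 3.84% and 2.98% of all entries. GBX2 (ENSG00000168505), which positions the midbrain and hindbrain border, was at 14.7 FPKM at Day 0 and 5.61 at Day 4, and at 9.80 and 12.8 in the mutant line. Relative to the untreated mutant line its Day 4 ratio was 0.573, which is not a call. The CDX genes, direct activators of central HOX genes, stayed near 0: CDX2 was at 0.23 FPKM or less in each library, CDX1 at 0 in the JMJD3c line, and CDX4 at 0.63 or less. KMT2A and KAT6A, chromatin activators of HOX genes, were at 7.55 and 8.66 FPKM at Day 0 and 7.80 and 5.59 at Day 4. The median log2 fold change of the list at Day 4 was 0.08.

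Among 19 genes of the retinoic acid pathway, CYP26A1 and ALDH1A3 were upregulated at Day 4 and none was downregulated, against 2.98% and 3.84% of all entries. CYP26A1 (ENSG00000095596), the enzyme that breaks down retinoic acid and is itself induced by it, was at 2.63, 10.5, 29.0, 35.5 and 48.8 FPKM from Day 0 to Day 4. It was at 4.40 and 2.27 FPKM in the mutant line without and with Dox. The ratio at Day 4 was 18.5, with Cufflinks intervals apart (0.58 to 4.68 and 42.2 to 55.3 FPKM). ALDH1A3 (ENSG00000184254), which makes retinoic acid, was at 4.07 and 9.92 FPKM with overlapping intervals, and at 6.87 and 8.72 in the mutant line, whose untreated sample gives a Day 4 ratio of 1.44 and no call. The retinoic acid receptor gene RARB, itself a target of the pathway, was at 1.18 FPKM at Day 0 and 0 at Day 4. The median log2 fold change of the list at Day 4 was -0.19, below that over all entries, so CYP26A1 did not stand for the list.

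Of 19 ParaHOX and other homeobox genes related to the HOX clusters, EVX1 was upregulated and GBX2 downregulated at Day 4. The shares of all entries were 2.98% and 3.84%. MNX1, which marks motor neurons and early endoderm, was at 0, 0.19, 0.22, 0.74 and 1.74 FPKM from Day 0 to Day 4, below the cutoff of 4 FPKM. GSX1, PDX1, MEOX1, DLX6 and GBX1 were at 0 in all 7 libraries. In the mutant line, no gene of these 4 lists was called, against 0.604% of all entries upregulated and 0.738% downregulated. The 4 lists overlap in CDX2 and GBX2.

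**Figure D5:**
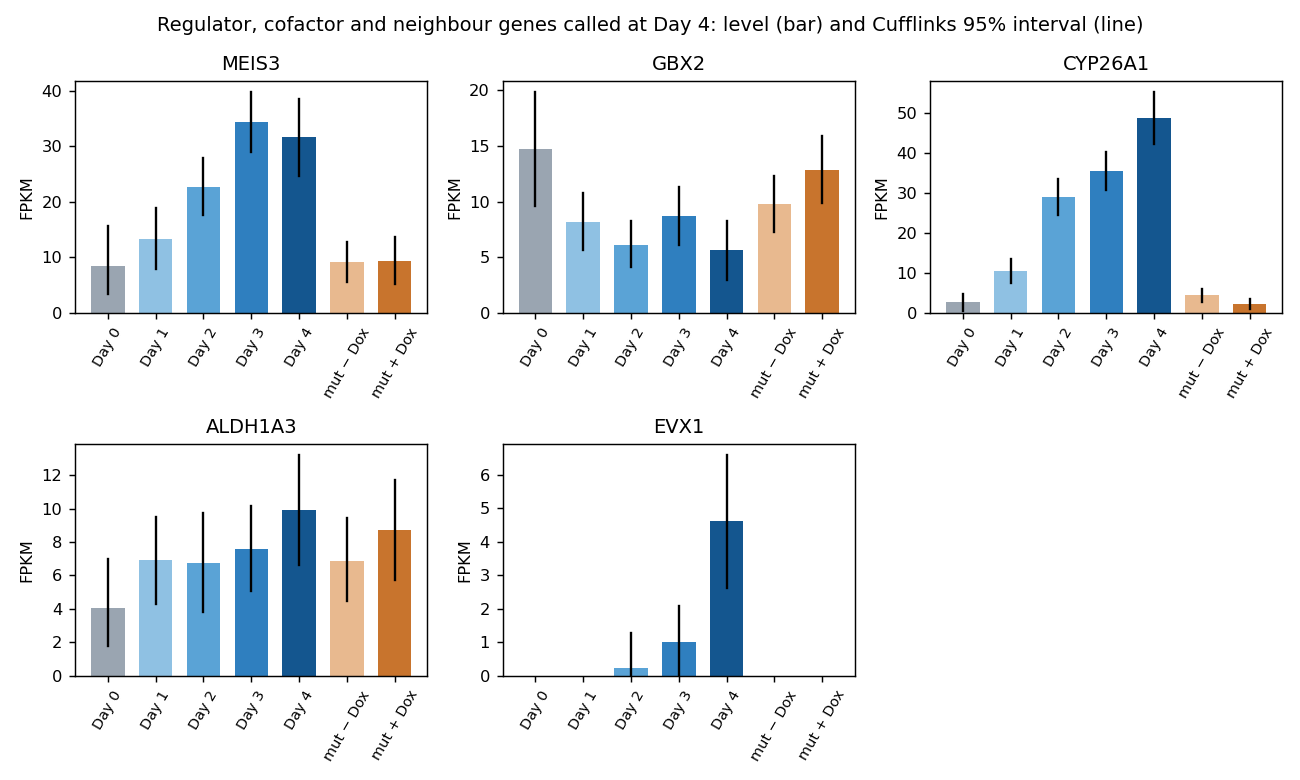
FPKM of the 5 genes of the cofactor, regulator, retinoic acid and homeobox lists called at Day 4, in the 7 libraries, with bars for the listed level, lines for the Cufflinks 95% interval and a separate linear axis per gene. MEIS3, CYP26A1 and EVX1 are highest at Days 3 and 4 and low in the mutant line (mut), and GBX2 is highest at Day 0.

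The genes with the pattern most like that of PRAC1 were sought among 10862 genes with at least 4 FPKM in some library, by Pearson's correlation of log2(FPKM + 1) over the 7 libraries, 5 of which are of 1 line. FKBP1B, an FK506-binding protein of calcium channels, had the highest value at 0.993. It was followed by C1orf233 (0.991), FAM110A (0.990), ZIC5 (0.980) and SEMA6B (0.980). ZIC5, a zinc finger gene of the neural plate, was at 15.8 FPKM at Day 0, 5.55 at Day 4, and 12.2 and 8.93 in the mutant line. FKBP1B was at 33.9 FPKM at Day 0, 17.9 at Day 4, and 25.3 and 23.1 in the mutant line. By the way they were chosen, these genes share with PRAC1 a lower level at Day 4 and an intermediate one in the mutant line. All had a smaller range than PRAC1.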

How the data were processed

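RNA-seq was made from 7 samples of SEES-3 hESCs, 1 library per condition, from poly(A) RNA with a directional kit. The authors sequenced single-end reads on a MiSeq, mapped them to hg19 with TopHat2 2.0.13 and calculated FPKM per gene with Cufflinks 2.1.1. The submitters' processing notes also name CASAVA 1.4. The deposited FPKM values come with 95% bounds, which describe 1 library and not the variation between cultures. The collection day of the untreated mutant line and the strand setting were not given in the sources used here.

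Tables were joined on gene ID and locus. Depth was estimated from the steps of low FPKM values in 819 single-exon genes (GENCODE 44 on GRCh37, fragments taken as 200 ± 80 bases). Of the low values, 86.0% lay at even multiples of the smaller spacing, so the larger was taken as 1 read. Reads of a member were used where at least 5 values were whole multiples (tolerance 0.1) of a step near the annotated one (1.02 times it for PRAC1 and 0.868 times for HOXB13). For HOXB1, HOXB2 and HOXB3 the step was 0.336, 0.604 and 4.43 times the annotated one, so their reads are given as uncertain. Ratios of reads have exact conditional Poisson intervals. No test was made.

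The members and lists were chosen with earlier results of these data known. Values are given for PRAC1, HOXB13, any called HOX gene and the 15 HOX genes with the highest FPKM, for list genes called at Day 4 or in the mutant line (at most 8 per list), and for the 5 genes most like PRAC1. A few genes of the group and the lists are not reported here. Other genes named with values were chosen after their values were seen. Alternatives changed the cutoffs, fold, intervals, scaling, reference and pseudocount. The calculations, tested on simulated data, were made in Python 3.11.15 (scipy 1.17.1, pandas 2.3.3, numpy 2.4.6) with figures drawn in matplotlib 3.10.9.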

Additional observations from a re-analysis of the deposited data

Results flagged for a closer look

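Among PRAC1, the HOX genes and the list genes called at Day 4, there were 5 for which the value moved one way from Day 0 to Day 4 in the JMJD3c line and the opposite way with Dox in the mutant line. With 1 sample on each side, the difference was not tested for any of them. The log2 fold change in the JMJD3c line minus that in the mutant line was -0.88 for HOXB2 (-0.17 and 0.71), 0.80 for HOXB13 (0.46 and -0.34) and 0.74 for HOXD1 (0.54 and -0.20). It was -1.61 for GBX2 (-1.25 and 0.36) and 4.50 for CYP26A1 (3.78 and -0.72). For CYP26A1 the interval at Day 4 lay above that at Day 0 and those of the mutant samples overlapped. Some list genes that were not called, KAT6A (-0.55 and 0.27) among them, also moved in opposite directions and are not listed. The 3 HOX genes were below 2.3 FPKM in each of the samples compared, and HOXD1 was at 0 at Day 0 and in the Dox-treated mutant line.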

How the results depend on the processing

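No paired analysis was possible because each condition has 1 library and the labels give no replicate numbers, and no replicate could be left out. Of 341 values under an alternative, 283 stayed within 1.5 times the reported value, 57 moved further and 1 reversed. Many of the 283 could hardly move, so their number is no measure of robustness. Rescaling shifted a level by at most 0.06 on the log2 scale, levels of 0 stayed at 0, and no HOX gene passed 4 FPKM. Relative to the untreated mutant line, the PRAC1 ratio was 1.89 at Day 1, 1.21 at Day 2 (the reversal), 0.730 at Day 3 and 0.115 at Day 4, and no member was downregulated at Day 2 or 3 (0 and 0). At Day 2 the count was also 0 with the mean of both untreated libraries as reference.

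With a cutoff of 1 FPKM, 3, 1 and 1 members were upregulated at Days 1, 2 and 3. With no cutoff, 8, 8, 6 and 4 members passed as upregulated at Days 1 to 4 and 1 in the mutant line. As downregulated, 2, 2 and 2 passed at Days 2 to 4 and 3 in the mutant line. The share of all entries was not counted for this rule, under which any value above 0 passes against 0. At Day 4 the members were HOXB9, HOXD13, HOXD1 and HOXA11, each at 0 at Day 0 and worth 1.84 to 2.55 reads by the annotated length. When the intervals also had to be apart, 0 members were downregulated at Days 2 and 3. A fold of 3 left 0 at Day 2, and a fold of 1.5 gave 1 downregulated member in the mutant line.

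Detected HOX genes at 0.5 FPKM or more numbered 4 at Day 0, 7 at Day 2, 4 at Day 4, and 1 and 1 in the mutant line without and with Dox. At 4 FPKM they numbered 0 at each of the 5 days. With a lower Cufflinks bound above 0 they numbered 2 at Day 1, and 1 and 2 in the mutant line. Above the worth of 3 reads by the annotated length they numbered 3, 6, 4 and 2 at Days 0, 2, 3 and 4, and 1 and 2 in the mutant line. HOXB3, whose reads are uncertain, is among them at each of these days.

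Without the gene of each cluster with the highest mean, HOXB summed to 2.23, 2.55 and 2.07 FPKM at Days 0, 3 and 4, and 0 and 0.637 in the mutant line. HOXC summed to 0, 0.767, 0.282 and 0 FPKM at Days 0, 1, 3 and 4, HOXA to 0 and 0 at Days 3 and 4, and HOXD to 0 at Day 1 and 0.449 at Day 4. With both HOXC4 entries, HOXC summed to 3.33 FPKM at Day 1 and 1.08 at Day 3. Rescaling by the median ratio moved levels by at most 0.06 on the log2 scale. In an alternative chosen after seeing the data, with the smaller spacing taken as 1 read, the upper end of the PRAC1 interval at Day 4 was 0.158 in place of 0.257.

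Depth limits the HOX values: at Day 0, with an estimated 1780000 reads, 3 reads were worth a median of 0.926 FPKM over the HOX genes (0.351 to 2.14 by gene), and values at or below that worth rest on 3 reads or fewer.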

Other observations

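The JMJD3c line without Dox and the mutant line without Dox differed in some of the genes described here. RDH10, which makes the precursor of retinoic acid, was at 16.8 FPKM at Day 0 and 21.0 at Day 4, against 3.86 and 7.23 in the mutant line without and with Dox. GMNN, whose product geminin binds HOX proteins, was between 45.2 and 56.1 FPKM in the 5 samples of the JMJD3c line, against 89.0 and 83.7 in the mutant line. CRABP2, a carrier of retinoic acid, was between 74.0 and 123 FPKM in the JMJD3c line, against 50.8 and 44.9. For these 3 genes the listed values of the lines did not overlap, with or without Dox. The Cufflinks intervals of Day 0 and the untreated mutant line did overlap for RDH10, at 5.15 to 28.4 and 1.09 to 7.11 FPKM. They also overlapped for CRABP2, at 60.2 to 94.8 and 41.1 to 60.5 FPKM. For GMNN they were apart, at 33.7 to 56.8 and 75.9 to 102 FPKM. Of all entries, 10.4% had all 5 samples of the JMJD3c line above both mutant samples. The share in the opposite direction, that of GMNN, was not counted. They were chosen after their values were seen.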
